A study of Mus musculus with 6 samples.

Results

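The growth hormone and insulin-like growth factor (IGF) axis was followed through 10 genes chosen by symbol: Ghr, Igf1, Igfals, Igfbp1, Igfbp2, Igfbp3, Igfbp4, Socs2, Cish and Stat5b. All 10 were found among the 25718 genes of the deposited table, with 1 row each, and all 10 passed the filter on low counts. Hepatocytes, the main parenchymal cell type of liver, isolated as primary cells, came from alcohol-fed WT mice and alcohol-fed mice that carry 1 deleted copy of S100a16, which encodes a calcium-binding protein of the S100 family. There were 3 libraries per genotype, and the question was which transcripts differ between them. The labels give the second genotype as S100A16 knockdown, whereas the study's methods describe S100a16KO+/- mice, the name used here. In these mice a floxed S100a16 allele was removed by EIIa-Cre, a Cre recombinase active in the early embryo, so the deletion is not restricted to hepatocytes. According to the methods, male mice of 8 to 10 weeks on a C57BL/6 background received control liquid diet for 5 days, a 5% ethanol diet for 10 days and, 9 h before collection, ethanol at 5 g/kg by gavage. Both genotypes had the ethanol, and hepatocytes of mice on control diet were not analysed here. The sources used here do not say whether each library came from a separate mouse, so that the p-values measure only the spread between these libraries, which may be technical.

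In liver, growth hormone binds its receptor GHR on hepatocytes, the receptor-bound kinase JAK2 phosphorylates STAT5B, and STAT5B enters the nucleus and switches on target genes. Igf1 and Igfals are such targets, and so are Socs2 and Cish, whose proteins damp the signal in return. Hepatocytes release IGF1 into the blood, where most of it travels in a complex with a binding protein and the acid-labile subunit encoded by Igfals. Other binding proteins hold IGF1 in smaller complexes, and IGFBP1 is known for its rapid control by insulin, fasting and cell stress.

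Library totals of estimated counts lay between 67658095 and 71807834, with about 4 counts for 1 sequenced fragment. Where a gene is at 0, as many as 3 fragments (12 counts) may have been missed, a limit that covers counting error only. S100a16 had 1001, 1056 and 1107 counts in WT libraries against 433, 390 and 366 in S100a16KO+/- libraries, which matches the labels. Mitochondrial transcripts took 21.1% of the counts in WT replicate 1 and 20.1% in S100a16KO+/- replicate 2, against 16.98% to 18.6% in the other libraries. Hepatocyte markers were abundant throughout, with summed values of 48343 to 49396 FPKM in WT and 47729 to 48657 FPKM in S100a16KO+/- libraries (FPKM, fragments scaled to transcript length and library size). Most of this sum was Alb, the albumin gene (32475 to 34053 FPKM), and of the 10 hepatocyte markers 2 were higher and 3 lower in S100a16KO+/- hepatocytes. Markers of other cells also moved with genotype. Of 12 endothelial markers 11 were higher and 1, Lyve1, was lower in S100a16KO+/- hepatocytes, with sums of 63.9 to 70.4 FPKM in WT and 94.7 to 98.5 FPKM in S100a16KO+/- libraries. Of 12 stellate cell markers 7 were higher (14.9 to 15.3 against 24.3 to 26.5 FPKM), and of 12 Kupffer cell markers 4 were higher (83.6 to 97.8 against 101.2 to 112.4 FPKM). All 5 erythroid markers measured were lower (260.6 to 287.9 against 25.2 to 26.2 FPKM). For cholangiocyte markers 1 of 5 tested was lower (2.06 to 2.75 against 2.24 to 2.84 FPKM), and for T and B cell markers 1 of 8 (1.21 to 1.53 against 0.816 to 1.54 FPKM). The part of these cells in the results below was not tested, and in bulk RNA a change in the number of cells of a type and a change in RNA per cell cannot be told apart.

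Socs2 and Igfbp1 showed the largest changes of the 10 genes, and both were higher in S100a16KO+/- hepatocytes. Igf1, Stat5b and Igfbp2 were higher by smaller amounts, and Igfals was lower. Ghr, Igfbp3, Igfbp4 and Cish did not pass the test. Thus 6 of 10 genes had an adjusted p under 0.05, 5 of them higher and 1 lower, in edgeR's two-sided quasi-likelihood test with Benjamini-Hochberg adjustment over 15957 tested genes. Over all tested genes this share was 22.8%, with 11.6% higher and 11.2% lower. Among genes with at least 1 CPM in 3 libraries (CPM, counts scaled to library size), 6 of 9 of these genes passed, beside 3749 of 12031 in all. The median log2 fold change of the 10 genes was 0.21, against 0.01 for all tested genes. When at least a 2-fold change was asked for together with an unadjusted p below 0.05, 1 of the 10 genes passed, Socs2, against 4.52% of all tested genes (2.9% higher and 1.62% lower). In 8 of the 10 genes the 3 values of one genotype lay apart from the 3 of the other in normalised read counts (CPM, scaled to library size), which was the case for 37.9% of all tested genes. Without WT replicate 1 and S100a16KO+/- replicate 2, the pair with the highest mitochondrial shares, the count of genes that passed was again 6, with 5 higher and 1 lower.

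**Figure D1:**
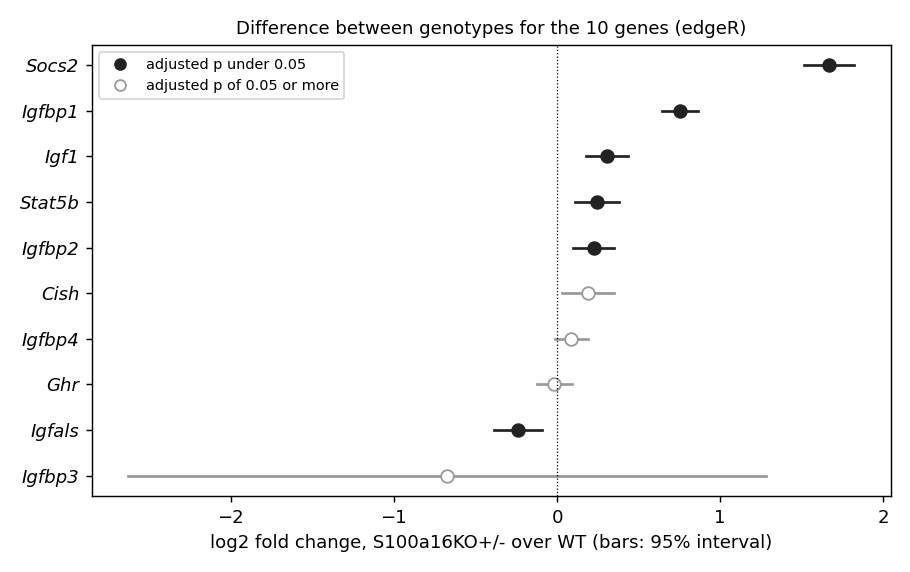
Log2 fold change (horizontal axis, S100a16KO+/- over WT) of each of the 10 genes from edgeR, with bars for the 95% interval of the fit over 3 libraries per genotype. Filled points had an adjusted p under 0.05, and Socs2 (1.67) and Igfbp1 (0.75) lie farthest to the right, while the interval of Igfbp3 runs from -2.63 to 1.28.

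Ghr (ENSMUSG00000055737) encodes the growth hormone receptor and lies on the minus strand of chromosome 15 from 3317760 to 3583230 (GRCm38, as for all positions here). Its level was 19.4, 21.5 and 21.8 FPKM in WT replicates 1 to 3 and 21.5, 19.8 and 20.96 FPKM in S100a16KO+/- replicates 1 to 3. The genotypes overlapped completely. The log2 fold change was -0.02 with a 95% interval from -0.12 to 0.09 (adjusted p = 0.856), and this interval bounds the change of the receptor transcript on both sides. The count of Ghr was between 13565 and 14905 in every library, so depth was not what limited this comparison.

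Stat5b (ENSMUSG00000020919, chromosome 11 from 100780731 to 100850724, minus strand) encodes the main STAT5 protein of hepatocytes. It had 5.01, 6.01 and 5.43 FPKM in WT libraries against 6.86, 6.06 and 6.64 FPKM in S100a16KO+/- libraries. Every S100a16KO+/- value was above every WT value, but WT replicate 2 and S100a16KO+/- replicate 2 were close to each other. The log2 fold change was 0.24 ± 0.06 (SE, adjusted p = 0.0117, edgeR). This call was lost when WT replicate 1 (0.22, adjusted p = 0.0502), WT replicate 3 (0.22, adjusted p = 0.0574) or S100a16KO+/- replicate 1 (0.22, adjusted p = 0.0562) was left out, and also in limma on FPKM values. Its paralog Stat5a, which lies 8626 bases away, went the other way, from 423, 595 and 393 counts in WT to 287, 180 and 358 counts in S100a16KO+/- libraries (log2 fold change -0.77 ± 0.21, SE, with adjusted p = 0.0154). The genes resemble each other: 15.2% of the 31-base words of Stat5b transcripts occur in transcripts of other genes, nearly all of them in Stat5a, and reads of the pair may have been divided between them in the counting. Summed over both genes, the WT libraries had 38.9, 44.6 and 38.9 CPM and the S100a16KO+/- libraries 45.7, 42.4 and 44.5 CPM, and on this sum the genotypes overlapped.

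Socs2 (ENSMUSG00000020027, chromosome 10 from 95385362 to 95417180, minus strand) encodes a suppressor of cytokine signalling that limits growth hormone action. Its level was 1.69, 1.84 and 2.03 FPKM in WT libraries against 6.34, 5.11 and 6.38 FPKM in S100a16KO+/- libraries. All S100a16KO+/- libraries lay far above all WT libraries. In normalised counts it rose from 19.9 ± 1.31 to 63.0 ± 4.77 CPM (SD, n = 3 each), 3.17-fold, and its log2 fold change was 1.67 ± 0.07 (SE, adjusted p = 7.77e-10). It stayed between 1.63 and 1.73 whichever library was left out. Over all 17 alternative settings the lowest value was 1.28, in limma on log2(FPKM + 1). Of the 31-base words of Socs2 transcripts 6.18% occur in other genes, most of them in the pseudogene Gm9847, which had at most 46 counts in any library against at least 1304 for Socs2.

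Cish (ENSMUSG00000032578, chromosome 9 from 107296026 to 107302784, plus strand) encodes the related feedback protein CIS. It had 3.30, 3.41 and 3.20 FPKM in WT and 3.63, 3.81 and 3.92 FPKM in S100a16KO+/- hepatocytes. The groups did not overlap, yet the shift was small, with a log2 fold change of 0.19, a 95% interval from 0.03 to 0.35 and an adjusted p of 0.0852 in edgeR. It passed the test under none of the 17 alternative settings. Socs2 and Cish therefore exchanged places in the order of levels: the ratio of Socs2 to Cish on the FPKM scale was 0.513, 0.540 and 0.634 in WT libraries against 1.75, 1.34 and 1.63 in S100a16KO+/- libraries. The interval of Cish lies wholly below that of Socs2, which runs from 1.51 to 1.82.

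Igf1 (ENSMUSG00000020053, chromosome 10 from 87858265 to 87937042, plus strand) encodes the circulating growth factor of the axis. Its level was 39.6, 38.0 and 38.7 FPKM in WT libraries against 47.4, 48.7 and 48.5 FPKM in S100a16KO+/- libraries. Spread within each genotype was small on this scale, and the groups lay clearly apart. In normalised counts, the scale of the test, the spread was wider. There the means were 431.1 ± 28.3 CPM in WT and 532.9 ± 31.7 CPM in S100a16KO+/- libraries (SD, n = 3 each), still without overlap. The log2 fold change was 0.31 ± 0.06 (SE, adjusted p = 0.00164), and S100a16KO+/- hepatocytes held 124.3% of the mean WT FPKM. The difference passed the test under all 17 alternative settings, with values between 0.26 and 0.36. An antisense gene, Igf1os, overlaps the start of Igf1 with 118 to 172 counts per library, against at least 28737 for Igf1.

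Igfals (ENSMUSG00000046070, chromosome 17 from 24865997 to 24882010, plus strand) encodes the acid-labile subunit. It was the single gene of the 10 that passed the test with a lower level, going from 24.98, 26.7 and 25.3 FPKM in WT to 22.7, 22.4 and 20.3 FPKM in S100a16KO+/- hepatocytes. No value of one genotype reached those of the other, although the distance between the nearest libraries was small. The log2 fold change was -0.24 ± 0.07 (SE, adjusted p = 0.0215). The call was lost without WT replicate 1 (-0.22, adjusted p = 0.0653), without WT replicate 2 (-0.24, adjusted p = 0.0726) and without S100a16KO+/- replicate 3 (-0.16, adjusted p = 0.0965). Igf1 and Igfals, which travel as proteins in the same complex, thus differed in direction: their FPKM ratio was 1.59, 1.43 and 1.53 in WT and 2.08, 2.17 and 2.39 in S100a16KO+/- libraries.

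Igfbp1 (ENSMUSG00000020429, chromosome 11 from 7197782 to 7202546, plus strand) encodes the insulin-regulated binding protein. It had 376.5, 415.3 and 408.8 FPKM in WT libraries against 694.9, 677.3 and 659.2 FPKM in S100a16KO+/- libraries. Every S100a16KO+/- library lay far above every WT library. In normalised counts it rose from 683.2 ± 5.36 to 1152 ± 70.4 CPM (SD, n = 3 each), 1.69-fold. The log2 fold change was 0.75 ± 0.05 (SE, adjusted p = 7.91e-08), and it stayed between 0.70 and 0.80 over the 17 alternative settings. None of the 31-base words of Igfbp1 transcripts occur in other genes.

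RefSeq promoter windows on GRCm38.p6, limited to the 250 bases before each start, were on hand for 9 of the 10 genes, in 14 windows. The gene without a window was Socs2, so its promoter was not searched. Both strands were searched for TTCNNNGAA, a form of the STAT5 motif, for the forkhead motif GTAAACA, and for CAAAACA, a core of the insulin response element known from IGFBP1 promoters. Among 32851 windows of all genes, TTCNNNGAA occurred in 7.02%, GTAAACA in 3.17% and CAAAACA in 5.56%. The stretch of Igfbp1 (chr11:7197537-7197781, plus strand) held CAAAACA, which begins 108 bases before the RefSeq start. The stretch of Igfals (chr17:24877981-24878214, plus strand) held TTCCTAGAA, which begins 58 bases before its start, and TGTTTAC, the reverse complement of the forkhead motif, 242 bases before it. Each printed stretch is from a gene whose windows held a match, Igfbp1 that rose and Igfals that fell. Capitals mark the matches, and bases within annotated exons were left off.
Igfbp1: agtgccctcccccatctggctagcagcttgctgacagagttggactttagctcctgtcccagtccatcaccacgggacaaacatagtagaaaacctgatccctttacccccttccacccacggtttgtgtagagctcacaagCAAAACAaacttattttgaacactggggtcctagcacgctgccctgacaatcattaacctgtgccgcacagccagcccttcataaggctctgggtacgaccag
Igfals: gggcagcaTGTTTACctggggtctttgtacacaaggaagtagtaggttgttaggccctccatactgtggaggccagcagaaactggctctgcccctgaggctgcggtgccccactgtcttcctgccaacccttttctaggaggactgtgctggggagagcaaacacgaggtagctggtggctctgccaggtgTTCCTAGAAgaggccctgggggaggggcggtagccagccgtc

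Such matches describe the letters of these windows and do not show that a factor was bound there. Another Igfals window, which is not printed, also held a TTCNNNGAA match, 236 bases before a further start. The windows of the other searched genes, which do not include Socs2, held none of the motifs.

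Igfbp2 (ENSMUSG00000039323, chromosome 1 from 72824503 to 72852474, plus strand), which encodes another binding protein made by hepatocytes, had the highest mean FPKM of the 10 genes in both genotypes, although in S100a16KO+/- replicate 1 Igfbp1 stood above it. Its level was 585.7, 603.8 and 586.1 FPKM in WT libraries against 681.4, 720.0 and 680.6 FPKM in S100a16KO+/- libraries. The groups were separate. The log2 fold change was 0.22 ± 0.06 (SE, adjusted p = 0.0118), and the call was lost without WT replicate 2 (0.21, adjusted p = 0.0655) and without WT replicate 3 (0.20, adjusted p = 0.0791). Igfbp4 (ENSMUSG00000017493, chromosome 11 from 99041244 to 99054392, plus strand) had 288.2, 315.4 and 312.4 FPKM in WT and 334.0, 322.5 and 321.2 FPKM in S100a16KO+/- hepatocytes. These groups were separate by a narrow margin, and the log2 fold change of 0.09 did not pass the test (95% interval from -0.01 to 0.19, adjusted p = 0.206).

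Igfbp3 (ENSMUSG00000020427) encodes the main carrier of IGF1 in blood, and in rodent liver it is known mostly from non-parenchymal cells. It lies 3539 bases from Igfbp1, on the minus strand of chromosome 11 from 7206086 to 7213923. Its counts were 32, 31 and 18 in WT libraries against 38, 0 and 13 in S100a16KO+/- libraries, so that it was barely measurable. The 0 of S100a16KO+/- replicate 2 allows up to 12 counts. The genotypes overlapped, and with a 95% interval of the log2 fold change from -2.63 to 1.28 (adjusted p = 0.665) no difference was detectable at this depth.

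**Figure D2:**
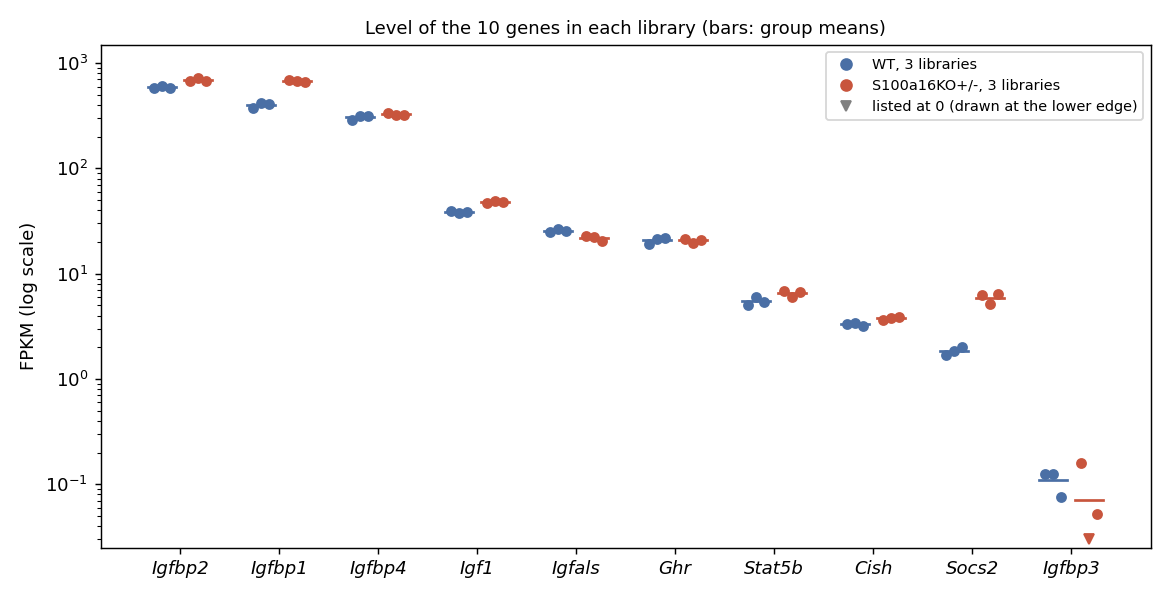
FPKM of the 10 genes (vertical axis, log scale) in each of 3 WT and 3 S100a16KO+/- libraries, ordered by WT mean, with bars for group means and a triangle where a gene was listed at 0. Socs2 moves from 1.69 to 2.03 FPKM in WT up to 5.11 to 6.38 FPKM in S100a16KO+/- libraries, while Ghr stays between 19.4 and 21.8 FPKM.

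On the FPKM scale, which is per length, WT hepatocytes held the genes in the order Igfbp2, Igfbp1, Igfbp4, Igf1, Igfals, Ghr, Stat5b, Cish, Socs2 and Igfbp3. The ranges of all neighbours in that order were separate. In S100a16KO+/- hepatocytes Socs2 stood above Cish, and the ranges of 3 pairs of neighbours overlapped. These were Igfbp2 with Igfbp1, Igfals with Ghr, and Stat5b with Socs2. Igfbp1 lay below Igfbp2 in every WT library, with FPKM ratios of 0.643, 0.688 and 0.697, and came to about the same level in S100a16KO+/- libraries, with ratios of 1.02, 0.941 and 0.969.

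The binding proteins made up most of the signal of the axis. Igfbp1, Igfbp2 and Igfbp4 together held 93.0% to 93.2% of the summed FPKM of the 10 genes in WT and 94.0% to 94.2% in S100a16KO+/- hepatocytes. Summed over Igfbp1 to Igfbp7, binding protein transcripts amounted to 1269, 1354 and 1326 FPKM in WT libraries against 1742, 1749 and 1693 FPKM in S100a16KO+/- libraries. Igfbp1 took 29.7%, 30.7% and 30.8% of that sum in WT and 39.9%, 38.7% and 38.9% in S100a16KO+/- hepatocytes. The share of Igfbp2 went from between 44.2% and 46.2% to between 39.1% and 41.2%, although its own level was higher. The share of Igfbp4 went from between 22.7% and 23.6% to between 18.4% and 19.2%. Relative to Igfbp1, Igf1 was lower in S100a16KO+/- hepatocytes, with FPKM ratios of 0.0682 to 0.0736 against 0.0916 to 0.105 in WT. No test was run on shares and ratios, which were computed from the same values as the levels above.

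**Figure D3:**
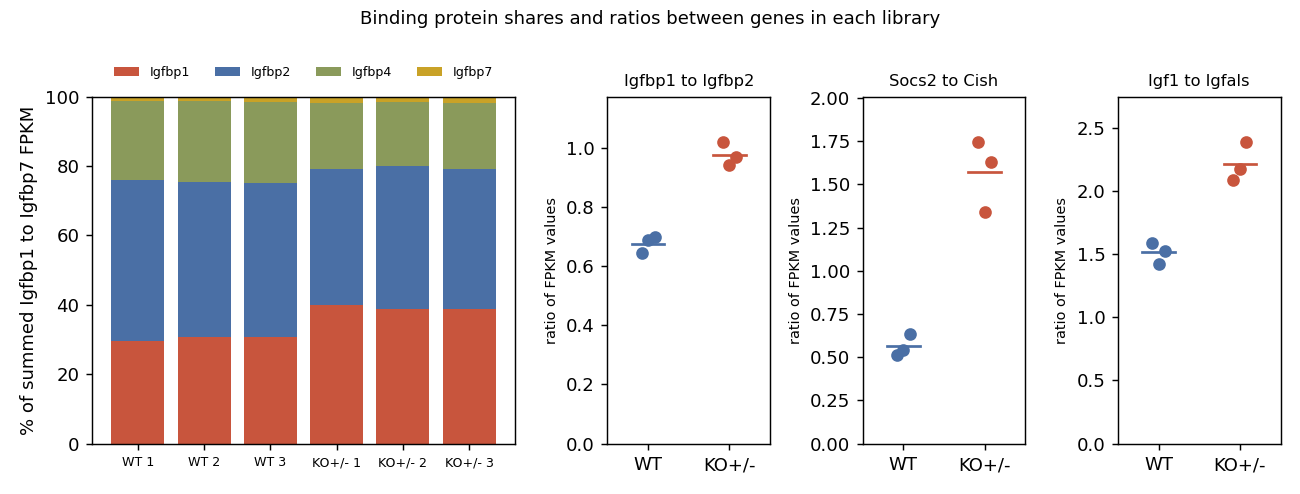
Left, the percentage of summed Igfbp1 to Igfbp7 FPKM taken by Igfbp1, Igfbp2, Igfbp4 and Igfbp7 in each library (KO+/- stands for S100a16KO+/-, and Igfbp3, Igfbp5 and Igfbp6 are too small to see). Right, FPKM ratios of Igfbp1 to Igfbp2, Socs2 to Cish and Igf1 to Igfals, with a point per library and bars for group means, in each of which the 3 S100a16KO+/- libraries lie above the 3 WT libraries.

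Around these genes, 104 related genes in 6 lists were read from the same fit. Of the 93 that were tested, 26 were higher and 24 lower in S100a16KO+/- hepatocytes at an adjusted p under 0.05, and 43 did not pass. The median of their log2 fold changes was 0.03. The share that passed, 53.8%, stands beside 22.8% for all tested genes. When only genes with at least 1 CPM in 3 libraries were tested, 55 of 86 related genes passed, beside 3749 of 12031 genes in all.

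Of 23 further genes of growth hormone receptor signalling, 5 were higher and 6 lower. The largest changes were those of Irs2, Socs3 and Lepr. Irs2, an adaptor of the insulin and IGF1 receptors, rose from 29.4 ± 2.12 to 120.2 ± 2.09 CPM (SD, n = 3 each), which is 2.03 on the log2 scale. Socs3, a feedback inhibitor of cytokine receptors and a relative of Socs2, rose from 6.61 ± 0.853 to 17.9 ± 1.09 CPM (log2 fold change 1.43). Lepr, the leptin receptor gene, rose by a log2 fold change of 1.01. Jak2, the kinase bound to GHR, had 10.1 and 9.73 CPM in WT and S100a16KO+/- means and did not pass (log2 fold change -0.06, adjusted p = 0.804). Jak2, Stat5a, Igf1r, Insr and Igf2 were named for their roles, after their values were seen.

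Of 17 other genes of the IGF system, 14 were in the table, 10 were tested, and 1 was higher and 0 lower. That gene, Igfbp7, rose from 24.8 ± 0.386 to 41.3 ± 0.024 CPM (SD, n = 3 each), which is 0.73 on the log2 scale (adjusted p = 6.21e-07). Igfbp7 is well known as a transcript of vascular endothelium. Its rise went with that of 11 of 12 endothelial markers (Lyve1 fell), but also with 7 of 12 stellate cell and 4 of 12 Kupffer cell markers. The part of these cells was not tested. The receptor genes did not pass: Igf1r, the IGF1 receptor, had means of 0.688 (WT) and 0.960 CPM (S100a16KO+/-) (adjusted p = 0.494), and Insr, the insulin receptor, had 147.2 and 142.0 CPM (adjusted p = 0.527). Igf1r had only 26 to 85 counts per library, and its log2 fold change of 0.48 ± 0.43 (SE) bounds a change poorly. Igf2, the fetal ligand, was too low to be tested.

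Of 11 transcription factors regulated by or acting with growth hormone in liver, 3 were higher and 5 lower. Bcl6, a repressor at STAT5 sites, fell by 1.03 on the log2 scale, from 5.41 to 2.65 mean CPM. Foxa2 and Cebpa, both hepatocyte transcription factors, fell by 0.88 and 0.70. Of 20 genes with higher levels in male liver, 4 were higher and 4 lower, with the largest changes for Egfr (0.91), Cyp4a12b (-0.66) and C8a (0.62). Of 20 genes with higher levels in female liver, 16 were tested, and 7 were higher and 5 lower, among the latter Cyp2b10 (-1.64) and Cyp4a10 (-0.94). Members of the Cyp2b and Cyp4a families resemble each other, so their counts could be split between copies. The medians were 0.09 for the male-biased and -0.10 for the female-biased list, and in neither did the genes that passed share a direction.

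Among 14 genes regulated by FoxO1, insulin or stress like Igfbp1, 7 were higher and 4 lower. Irs2 (2.03) and Ppargc1a (1.96), a coactivator of fasting genes, rose. Fgf21, a hormone released by stressed or fasted hepatocytes, fell from 105.9 ± 11.5 to 7.64 ± 1.31 CPM (SD, n = 3 each).

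**Figure D4:**
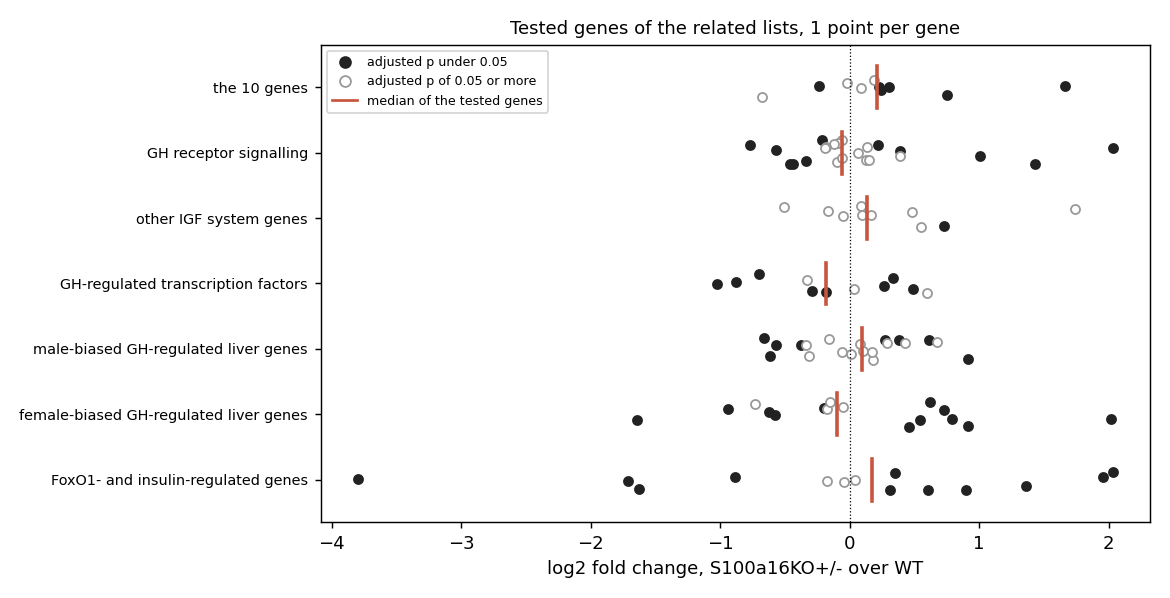
Log2 fold change (horizontal axis, S100a16KO+/- over WT) of each tested gene of the 6 related lists and of the 10 genes, with 1 point per gene, filled where the adjusted p was under 0.05, and bars for list medians. Points lie on both sides of 0 in every list, and medians run from -0.18 for transcription factors to 0.21 for the 10 genes.

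The genes most like Socs2 and Igfals, the members with the largest rise and the largest fall among those that passed, were sought among 11937 genes whose mean reached 1 CPM. Likeness was the root mean square difference over the 6 libraries of log2(CPM + 1), centred on each gene's mean. Nearest to Socs2 were Id3, an inhibitor of DNA-binding factors (0.0644), Got1, an aspartate aminotransferase (0.0750), and Piga, an enzyme of membrane anchor synthesis (0.0887). Id3 went from 10.4 ± 1.21 to 31.8 ± 1.503 CPM (SD, n = 3 each) and Got1 from 164.6 ± 3.22 to 549.6 ± 23.3 CPM. Nearest to Igfals were Dsg2, a desmosomal cadherin (0.0255), Macroh2a1, a histone variant (0.0273), and Arpin, an inhibitor of actin branching (0.0276). In edgeR, Dsg2 passed (log2 fold change -0.26, adjusted p = 0.00696). Macroh2a1 (-0.20, adjusted p = 0.0604) and Arpin (-0.25, adjusted p = 0.273) did not. These lists are descriptions over 6 libraries in 2 groups. The genes were picked for likeness over the same libraries, so their direction follows from the choice. Their edgeR values are therefore no separate evidence.

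**Figure D5:**
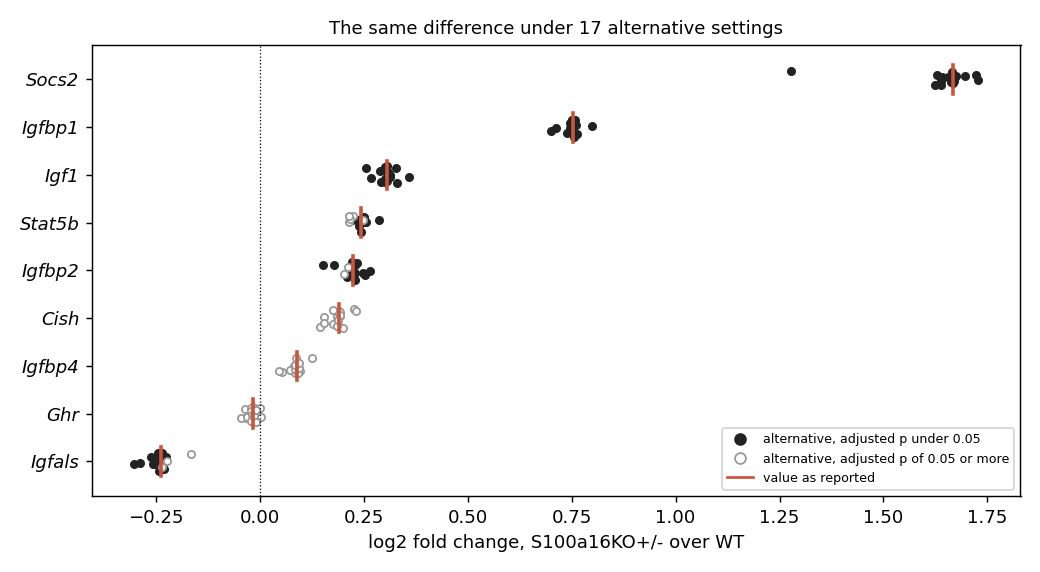
Log2 fold change (horizontal axis) of 9 of the 10 genes under 17 alternative settings, with 1 point per setting, filled where the adjusted p was under 0.05, and bars for the values given above (Igfbp3 is left out for its wide range). Socs2, Igfbp1 and Igf1 passed under every setting shown, while Stat5b, Igfbp2 and Igfals passed under 12, 15 and 14 of them.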

How the data were processed

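RNA-seq was analysed in 3 WT and 3 S100a16KO+/- libraries of primary hepatocytes, grouped by their titles. The authors deposited 1 table with an estimated count and an FPKM value per gene and library, the FPKM values being scaled by the authors for transcript length and library size. The submitters' processing notes name cutadapt 1.9, HISAT2 2.0.4, UMI-tools, StringTie 1.3.4d and mm10, without the step each was used for. They also name edgeR and DESeq2, without versions. Libraries were dUTP strand-marked, and whether the counting used strand is not given in the sources used here. Counts of 4 were in excess (936 genes in WT replicate 1, with 561 at 3 and 259 at 5), so that a fragment is worth about 4 counts.

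Estimated counts, rounded to whole numbers, were compared with edgeR 4.0.16 in R 4.3.3 (TMM, filterByExpr, robust quasi-likelihood fit, two-sided, no covariate), with Benjamini-Hochberg adjustment over 15957 genes. The study's methods name DESeq2, which was run as an alternative (version 1.42.0), as were limma 3.58.1, other scalings and filters, counts divided by 4, the replicate block and leaving out libraries. The fits were tried on simulated counts with known changes. These had the same relative spread setting for every gene and were not in steps of about 4 counts per fragment. They therefore do not measure how accurate the fits are on these data. Replicates were not identical libraries. The genes, lists and alternatives were chosen with earlier results of these data known. Named genes were the 10 members and, per list, up to 3 genes that passed with the largest absolute change and a mean of at least 1 CPM. A gene that this rule names is not reported here. Positions were those of the table, and 23008 of its 25655 genes found in GENCODE M21 on GRCm38 had the same start and end. Of the 10 genes, 9 matched, and the exception was Ghr.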

Additional observations from a re-analysis of the deposited data

How the results depend on the processing

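Of the results recomputed under each alternative, 202 kept their direction and their side of the threshold (counts within 1.5 times). These include genes that did not pass and stayed so. Of the rest, 10 calls were lost, 4 counts differed by more than 1.5 times and 3 values changed direction. Leaving out each library in turn gave log2 fold changes from -0.30 to -0.16 for Igfals, from 0.15 to 0.27 for Igfbp2, from 0.22 to 0.29 for Stat5b and from -0.035 to 0.0024 for Ghr (-0.044 without WT replicate 1 and S100a16KO+/- replicate 2), whose direction turned without WT replicate 3 or S100a16KO+/- replicate 3. These fits rest on fewer samples, and 4 to 6 of the 10 genes passed in them. Stat5b no longer passed in limma on log2(FPKM + 1), at 0.22, or on log2(FPKM + 0.1), at 0.25. Igfbp3 ranged from -2.06 without S100a16KO+/- replicate 1 to 0.044 without WT replicate 1 and S100a16KO+/- replicate 2, which removes its count of 0. The number of genes that passed over the whole table was 3643, and 721 when at least a 2-fold change was asked for with an unadjusted p below 0.05, a rule that left 1 of the 10 genes. It was 2188 and 2167 in limma on log2(FPKM + 1) and log2(FPKM + 0.1), where 9054 genes were tested. Igfbp3 had no value in 4 settings that removed genes of low level. With the replicate number as a block, 3082 genes, 6 of the 10 genes and 45 of the related genes passed, and no call on the 10 genes changed. Same-numbered libraries did not deviate together more than others did (correlations of -0.05, -0.02 and 0.05, against -0.07 to 0.08 for different numbers). With so few libraries this cannot show whether the samples were collected or processed in pairs. Depth limits Igfbp3, while the other 9 genes had at least 1304 counts in every library.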

Other observations

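The ratio of Socs2 to Ghr on the FPKM scale was 0.0857 to 0.0928 in WT against 0.259 to 0.304 in S100a16KO+/- libraries, and that of Igf1 to Ghr was 1.77 to 2.05 and 2.20 to 2.47. Igfbp5, which lies 5457 bases from Igfbp2, had a log2 fold change of -0.51 and did not pass (adjusted p = 0.215). The pseudogene Gm9847, which shares sequence with Socs2, had 15, 22 and 11 counts in WT against 34, 46 and 40 counts in S100a16KO+/- libraries.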
